A study of Mus musculus with 14 samples.

Results

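Endothelial cells line the blood vessels, and skeletal muscle carries a dense bed of capillaries between its fibres. The 10 genes described here (Pecam1, Cdh5, Esam, Kdr, Flt1, Tek, Tie1, Eng, Vwf and Egfl7) are standard markers of these cells. They were taken by symbol from 24359 genes measured in each library, and all 10 were present. RNA with poly(A) tails had been sequenced from a shin muscle of C57Bl/6 mice, the tibialis anterior. Muscles were treated with follistatin or served as controls, and they were sampled at day 3 (4 follistatin and 3 control libraries), day 7 (2 and 2) or day 14 (2 and 1). Myostatin and activins, TGF-beta family ligands that restrain muscle growth, are bound and blocked by secreted follistatin. The labels do not give the route or form of follistatin, what the controls received, the age of the mice, or whether each library came from a separate animal. All p-values therefore measure the spread between these libraries, which may be technical. Days 7 and 14 are also given together as the chronic set, because the series design joins them.

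The 10 genes serve different steps of vessel biology. Cdh5 (VE-cadherin), Pecam1 (CD31) and Esam are adhesion proteins that hold neighbouring endothelial cells together at their junctions. Kdr (VEGFR2) is the main signalling receptor for the growth factor VEGF-A, while Flt1 (VEGFR1) binds VEGF-A tightly and limits how much of it reaches Kdr. Tek (Tie2) is the receptor of the angiopoietins, which keep vessels quiescent or loosen them, and Tie1 is its partner receptor. Eng (endoglin) is a co-receptor for BMP9 in the ALK1 pathway, Vwf is a clotting protein stored in endothelial cells and platelets, and Egfl7 is a protein that endothelial cells secrete into their matrix. Pecam1 and Eng are also known from leukocytes.

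Promoters of the 2 receptor pairs are shown, chosen with the values known, because these 4 genes and Cdh5 had the largest chronic differences of the 10. RefSeq (GRCm38.p6) had an entry from 250 bases before to 50 bases after the start for 6 of the 10 genes, and those of Tek, Tie1, Kdr and Flt1 follow, each 5′ to 3′ on the strand of its gene. Capitals mark AGGAAG or CGGAAG on either strand, short words bound by ETS factors, a family that includes Erg and Fli1 of endothelial cells. The windows lie at chr4:94739039-94739338 (Tek, plus strand), chr4:118489800-118490099 (Tie1, minus strand), chr5:75978406-75978705 (Kdr, minus strand) and chr5:147725962-147726261 (Flt1, minus strand).
Tek: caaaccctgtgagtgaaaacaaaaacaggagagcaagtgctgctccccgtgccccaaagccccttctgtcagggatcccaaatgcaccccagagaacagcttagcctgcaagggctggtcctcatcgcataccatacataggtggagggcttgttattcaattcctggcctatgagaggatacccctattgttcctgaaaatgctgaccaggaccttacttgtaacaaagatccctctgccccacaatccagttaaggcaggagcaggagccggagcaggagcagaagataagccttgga
Tie1: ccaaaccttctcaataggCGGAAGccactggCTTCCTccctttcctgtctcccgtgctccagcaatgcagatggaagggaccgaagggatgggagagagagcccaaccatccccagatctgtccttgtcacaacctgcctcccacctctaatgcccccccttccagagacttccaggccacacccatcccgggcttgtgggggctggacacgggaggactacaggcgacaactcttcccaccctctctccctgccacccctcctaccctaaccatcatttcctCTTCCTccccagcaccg
Kdr: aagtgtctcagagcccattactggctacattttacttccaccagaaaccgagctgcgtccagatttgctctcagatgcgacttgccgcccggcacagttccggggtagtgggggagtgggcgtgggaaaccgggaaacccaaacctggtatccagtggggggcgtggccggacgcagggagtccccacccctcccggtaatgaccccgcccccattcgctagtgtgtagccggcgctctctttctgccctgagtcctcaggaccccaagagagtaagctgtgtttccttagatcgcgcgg
Flt1: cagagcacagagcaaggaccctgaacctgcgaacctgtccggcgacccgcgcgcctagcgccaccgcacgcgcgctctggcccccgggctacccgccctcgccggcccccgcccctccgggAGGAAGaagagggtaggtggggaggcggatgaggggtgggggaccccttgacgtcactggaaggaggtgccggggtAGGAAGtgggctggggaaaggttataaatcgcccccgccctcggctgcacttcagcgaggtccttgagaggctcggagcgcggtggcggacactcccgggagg
Tie1 held 3 such words and Flt1 held 2, whereas Tek and Kdr held 0. Eng held 2, and of the 3 starts listed for Egfl7, the first held 3, the second held 2 and the third held 0. A word of either spelling was present in 5 of the 8 promoter entries of these 6 genes and in 46.5% of all 32851 promoters of the same length. AGGAAG alone stood in 35.4% and CGGAAG alone in 16.9% of all promoters. The GATA word AGATAA was found 1 time, in Tek, where it stands in lower case, and in 11.2% of all promoters. The forkhead word TAAACA was in 0 of these windows and in 13.4% of all promoters. These matches describe letters only.

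The treatment showed in every library. Fst, the gene of follistatin, had 60.4, 49.7, 52.5 and 67.8 FPKM in day 3 follistatin muscles, against 1.01, 1.12 and 1.42 FPKM in day 3 controls. FPKM divides the fragments of a gene by the length of its transcript and by the mapped fragments of the library, so levels of different genes can be set side by side. At day 7 Fst had 366.7 and 407.3 FPKM with follistatin, against 0.808 and 1.17 FPKM in controls. Day 14 follistatin muscles reached 1315 and 1421 FPKM, against 1.04 FPKM in the control. Summed FPKM was 486377 to 515812 in day 3 follistatin libraries and 508717 to 532859 in day 3 controls, and 364513 to 433552 in chronic follistatin libraries and 485755 to 510584 in chronic controls. Read numbers were not used here. The authors marked 31 very highly expressed genes, the muscle genes Acta1 and Ckm among them, as having too many reads to estimate, and these are listed at 0 in some libraries. Without these genes the chronic libraries summed to 329853 to 390167 FPKM with follistatin and to 347937 to 377544 FPKM in controls. Of 12 muscle fibre markers, 9 are listed at 0 in all chronic follistatin libraries and 5 in all chronic controls, while at day 3 they summed to 92268 to 108378 FPKM with follistatin and to 104914 to 114115 FPKM in controls. Follistatin day 14 replicate 2 stood apart from the other follistatin libraries, and the chronic differences of the 10 genes and of the gene lists are also given without it.

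At day 3, Pecam1, Cdh5 and Tie1 had every follistatin library below every control, 3 of the 10 genes, against 6.80% of all genes tested. None of the 10 passed the test at day 3, where 1.49% of all 11268 tested genes passed in either direction and 0.568% passed as lower. The test was limma on log2(FPKM + 1), with p-values adjusted over all genes by the Benjamini-Hochberg method and a threshold of 0.05. At an unadjusted p under 0.05, 4 genes were lower (Pecam1, Cdh5, Tie1 and Vwf), against 6.46% of all genes. All 10 differences were below 0, against 47.4% of all genes, with a median of -0.19 on the log2 scale. The median of all genes was 0.01. In bulk muscle RNA, a smaller share of endothelial cells cannot be told apart from less RNA of a gene per cell. FPKM is relative to all fragments of a library, so more RNA from other cells would lower it too. These limits hold for all that follows, and none of these readings was tested.

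In the chronic set all 10 differences were again below 0, against 60.8% of all genes. Their median was -0.58, while the median of all genes was -0.09. Tek fell and was the 1 gene of the 10 that passed the test, where 5.50% of 11047 genes passed in either direction and 3.27% passed as lower. Over all genes, 361 calls were lower and 247 higher, which became 248 lower and 385 higher under median ratio scaling and 326 lower and 414 higher under quantile normalization. All 4 follistatin libraries lay below all 3 controls for Pecam1, Cdh5, Tek, Tie1, Kdr and Flt1, 6 of the 10, against 21.5% of all genes. At an unadjusted p under 0.05, 8 genes were lower, all but Eng and Egfl7, against 19.3% of all genes. The ratio of mean FPKM, follistatin over control, ran from 0.509 to 0.769 across the 10 genes in the chronic set and from 0.780 to 1.00 at day 3. Without follistatin day 14 replicate 2, the chronic median was -0.50 and 2 genes passed, Tek and Flt1. Without control day 7 replicate 1, the chronic median was -0.49 and 0 of the 10 passed. Calls over all genes then fell from 608 to 43. The chronic fit held no term for day, although 2 of 4 follistatin libraries and 1 of 3 controls were from day 14. With a day term the median of the 10 genes was -0.53 and 1 passed.

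**Figure D1:**
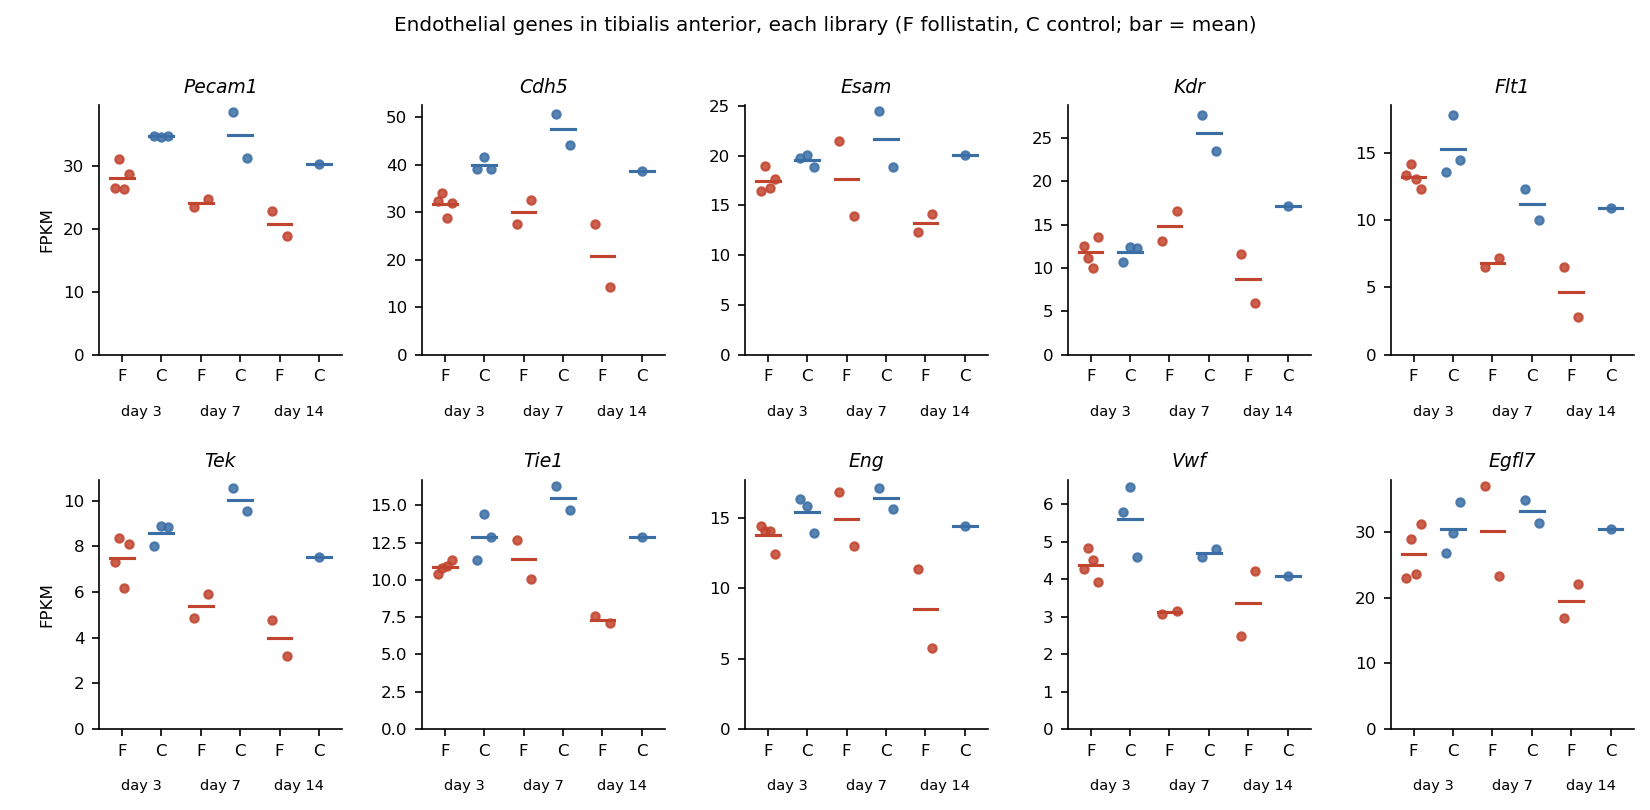
FPKM of the 10 endothelial genes in each of the 14 libraries, with follistatin (F, red) left of control (C, blue) at day 3, day 7 and day 14. Points are libraries and short bars are group means. At days 7 and 14 the red points of Pecam1, Cdh5, Kdr, Flt1, Tek and Tie1 lie below all blue points of days 7 and 14.

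The angiopoietin receptors come first because Tek was the gene that passed. Tek (ENSMUSG00000006386.15, chr4:94739289-94874976, plus strand, GENCODE M21 on mm10) had 4.87 and 5.93 FPKM in day 7 follistatin muscles, against 10.6 and 9.55 FPKM in day 7 controls. At day 14 it had 4.78 and 3.20 FPKM with follistatin, against 7.53 FPKM in the control. Every chronic follistatin library thus lay below every control. Chronic means were 4.69 ± 1.13 FPKM with follistatin (SD, n = 4) and 9.21 ± 1.54 FPKM in controls (SD, n = 3). The log2 difference was -0.85 ± 0.18 (SE), with an adjusted p of 0.0410 by limma. Compared within a day, the difference was -0.79 at day 7 and -0.79 at day 14. At day 3 Tek had 7.30, 8.35, 6.16 and 8.10 FPKM with follistatin, against 8.04, 8.89 and 8.86 FPKM in controls, and the groups overlapped. Its day 3 difference was -0.19 ± 0.11 (SE; limma adjusted p = 0.481).

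The call of Tek rests on single libraries. Without control day 7 replicate 1 its adjusted p by limma was 0.194, without control day 7 replicate 2 it was 0.131, and without control day 14 replicate 1 it was 0.0923. Leaving out follistatin day 7 replicate 1 gave 0.0523 and leaving out follistatin day 14 replicate 1 gave 0.0781. Without follistatin day 14 replicate 2 it stayed under the threshold at 0.0438, with a difference of -0.72. Across 18 alternatives the difference ran from -0.98 to -0.72 and the adjusted p from 0.00320 to 0.194.

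Tie1, the partner of Tek (ENSMUSG00000033191.14, chr4:118471191-118490061, minus strand), had 12.7 and 10.1 FPKM in day 7 follistatin muscles, against 16.3 and 14.7 FPKM in controls. The day 14 levels of Tie1 were 7.60 and 7.08 FPKM with follistatin, against 12.9 FPKM in the control. The chronic groups did not overlap, and the difference was -0.62 ± 0.19 (SE; limma adjusted p = 0.0917). Leaving out follistatin day 7 replicate 1, the highest chronic follistatin library for Tie1, moved it to -0.76 with a limma adjusted p of 0.0352. Leaving out each of the other 6 chronic libraries gave -0.70 to -0.51 with adjusted p from 0.104 to 0.299, and -0.51 (adjusted p = 0.150) was the value without follistatin day 14 replicate 2. At day 3 Tie1 had 10.4, 10.8, 10.9 and 11.3 FPKM with follistatin, against 11.3, 14.4 and 12.9 FPKM in controls. The highest follistatin value (11.31 FPKM) was just under the lowest control (11.35 FPKM). Tie1 over Tek within a library was 1.59 to 2.61 in chronic follistatin libraries and 1.54 to 1.71 in chronic controls, and these ranges overlap.

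Both VEGF receptors were lower in all chronic follistatin libraries, and neither passed the adjusted test. Kdr (ENSMUSG00000062960.10, chr5:75932827-75978458, minus strand) had 13.1 and 16.6 FPKM in day 7 follistatin muscles, against 27.6 and 23.4 FPKM in controls. At day 14 it had 11.6 and 5.94 FPKM with follistatin, against 17.2 FPKM in the control. The highest follistatin library and the lowest control were close, and the chronic difference was -0.94 ± 0.31 (SE; limma adjusted p = 0.102). Leaving out follistatin day 14 replicate 2 made it -0.68 (limma adjusted p = 0.107). At day 3 the group means differed by less than the spread, with 12.5, 11.1, 10.04 and 13.6 FPKM with follistatin against 10.6, 12.5 and 12.3 FPKM in controls. Its day 3 difference was -0.00 ± 0.11 (SE; limma adjusted p = 0.991). The sign of so small a value changed in 5 of 17 alternatives.

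Flt1 (ENSMUSG00000029648.13, chr5:147561604-147726011, minus strand) had 6.48 and 7.16 FPKM in day 7 follistatin muscles, against 12.3 and 9.998 FPKM in controls. Day 14 follistatin muscles had 6.49 and 2.80 FPKM of Flt1, against 10.9 FPKM in the control. Of the 4 chronic follistatin libraries, day 14 replicate 2 lay far below the others, which were close to each other. The chronic difference was -0.90 ± 0.26 (SE; limma adjusted p = 0.0797), and without that library it was -0.64 with an adjusted p of 0.0268. Leaving out each of the other 6 chronic libraries gave limma adjusted p from 0.0754 to 0.263. At day 3 Flt1 had 13.3, 14.2, 13.0 and 12.3 FPKM with follistatin, against 13.5, 17.8 and 14.5 FPKM in controls, and the groups overlapped (difference -0.19 ± 0.10, SE; limma adjusted p = 0.444).

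The balance of the VEGF receptors differed between the day 3 and the chronic libraries more than between treatments. Kdr over Flt1 within a library was 0.770 to 1.10 in day 3 follistatin libraries and 0.701 to 0.853 in day 3 controls. In the chronic set it was 1.78 to 2.32 with follistatin and 1.58 to 2.35 in controls, and the treatments overlapped in both sets. Chronic controls had 1.93 times the Kdr and 0.726 times the Flt1 of day 3 controls, and for both genes these control libraries did not overlap. For the other 8 genes, controls of the sets overlapped. The authors compared the sets in separate tables, so levels set across them, unlike ratios within a library, also carry any difference in scaling. Age, day and batch cannot be told apart between the sets.

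Among the junction proteins, Pecam1 and Cdh5 had follistatin libraries below all controls of the same day at each of the 3 days. Pecam1 (ENSMUSG00000020717.19, chr11:106654217-106750628, minus strand) had 26.6, 31.0, 26.3 and 28.8 FPKM in day 3 follistatin muscles, against 34.7, 34.6 and 34.8 FPKM in controls. The controls were nearly identical and all follistatin libraries were lower, and the difference was -0.29 ± 0.08 (SE; limma adjusted p = 0.119). At day 7 it had 23.5 and 24.7 FPKM with follistatin, against 38.7 and 31.3 FPKM in controls. At day 14 the levels were 22.8 and 18.8 FPKM with follistatin, against 30.3 FPKM in the control. All 4 chronic follistatin libraries were below all controls, and the chronic difference of -0.55 ± 0.13 (SE) missed the threshold with a limma adjusted p of 0.0551. It was -0.47 without follistatin day 14 replicate 2 (limma adjusted p = 0.0761).

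Cdh5 (ENSMUSG00000031871.9, chr8:104101625-104144511, plus strand) had the highest mean of the 10 genes in both treatments at day 3 and in the chronic set, although Egfl7 was slightly higher in the mean of day 7 follistatin muscles (30.2 FPKM, against 30.1 FPKM of Cdh5). It had 32.2, 33.9, 28.8 and 32.0 FPKM in day 3 follistatin muscles, against 39.0, 41.6 and 39.0 FPKM in controls. The groups were apart, with a difference of -0.32 ± 0.08 (SE; limma adjusted p = 0.0870). At day 7 it had 27.5 and 32.6 FPKM with follistatin, against 50.6 and 44.1 FPKM in controls. At day 14 it had 27.5 and 14.3 FPKM with follistatin, against 38.6 FPKM in the control. The chronic difference was -0.83 ± 0.26 (SE; limma adjusted p = 0.0945), and without follistatin day 14 replicate 2, the lowest library, it was -0.59 with an adjusted p of 0.0611. Leaving out each of the other 6 chronic libraries gave limma adjusted p from 0.0771 to 0.299.

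Esam (ENSMUSG00000001946.14, chr9:37528078-37538319, plus strand) was less separated. Its levels were 21.4 and 13.9 FPKM in day 7 follistatin muscles, against 24.4 and 18.9 FPKM in controls. At day 14 they were 12.4 and 14.1 FPKM with follistatin, against 20.0 FPKM in the control. The 1 high follistatin library, day 7 replicate 1, lay inside the range of controls. The chronic difference was -0.45 ± 0.19 (SE; limma adjusted p = 0.167), and without that library it was -0.61 with an adjusted p of 0.0363. Leaving out each of the other 6 chronic libraries gave -0.52 to -0.34 with limma adjusted p from 0.239 to 0.439, and -0.42 (adjusted p = 0.263) was the value without follistatin day 14 replicate 2. At day 3 Esam ran from 16.5 to 18.9 FPKM with follistatin and from 18.9 to 20.0 FPKM in controls (difference -0.16 ± 0.07, SE; limma adjusted p = 0.365).

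Eng, the BMP9 co-receptor (ENSMUSG00000026814.16, chr2:32646595-32682669, plus strand), had 16.8 and 13.0 FPKM in day 7 follistatin muscles, against 17.1 and 15.6 FPKM in controls. At day 14 it had 11.3 and 5.74 FPKM with follistatin, against 14.4 FPKM in the control. The groups overlapped at day 7 and were apart at day 14, and the chronic difference was -0.48 ± 0.30 (SE; limma adjusted p = 0.315). It was -0.20 without follistatin day 14 replicate 2 (adjusted p = 0.443 by limma). At day 3 Eng ran from 12.4 to 14.4 FPKM with follistatin and from 13.9 to 16.4 FPKM in controls. Eng shares 61 exon bases with Fpgs on the opposite strand, and since the strand setting of the libraries is not given, its level is uncertain to that extent.

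The secreted proteins had chronic groups that overlapped, as did Eng and Esam. Vwf (ENSMUSG00000001930.17, chr6:125546774-125686679, plus strand), the lowest of the 10 in every group mean, had 3.08 and 3.14 FPKM in day 7 follistatin muscles, against 4.59 and 4.80 FPKM in controls. Its day 14 levels were 2.49 and 4.22 FPKM with follistatin, against 4.08 FPKM in the control, and this was the 1 gene whose day 14 groups overlapped. The chronic difference was -0.39 ± 0.14 (SE; limma adjusted p = 0.130), and without follistatin day 14 replicate 2, its highest follistatin library of the set, it was -0.49 with an adjusted p of 0.0607. At day 3 Vwf had 4.28, 4.82, 4.50 and 3.91 FPKM with follistatin, against 5.78, 6.46 and 4.59 FPKM in controls (difference -0.29 ± 0.12, SE; limma adjusted p = 0.305). Markers of platelets, which also carry Vwf, summed to 7.48 to 10.7 FPKM in chronic follistatin libraries and to 5.49 to 10.8 FPKM in chronic controls.

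Egfl7 (ENSMUSG00000026921.18, chr2:26580014-26593120, plus strand) had 37.0 and 23.4 FPKM in day 7 follistatin muscles, against 34.9 and 31.4 FPKM in controls. At day 14 it had 16.9 and 22.0 FPKM with follistatin, against 30.4 FPKM in the control. Follistatin day 7 replicate 1 was the highest chronic library of all, and the chronic difference of -0.42 ± 0.23 (SE) had a limma adjusted p of 0.268. Without that library it was -0.62 with a limma adjusted p of 0.0457. Leaving out each of the other 6 chronic libraries gave -0.46 to -0.26 with adjusted p from 0.332 to 0.520, the smallest size without follistatin day 14 replicate 1 and -0.38 (adjusted p = 0.393) without day 14 replicate 2. At day 3 Egfl7 ran from 23.0 to 31.2 FPKM with follistatin and from 26.8 to 34.5 FPKM in controls. Egfl7 shares 264 exon bases with Gm20532 on its own strand, 64 with Agpat2 on the opposite strand and 73 with the microRNA gene Mir126a that it hosts, so its level is uncertain to that extent.

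**Figure D2:**
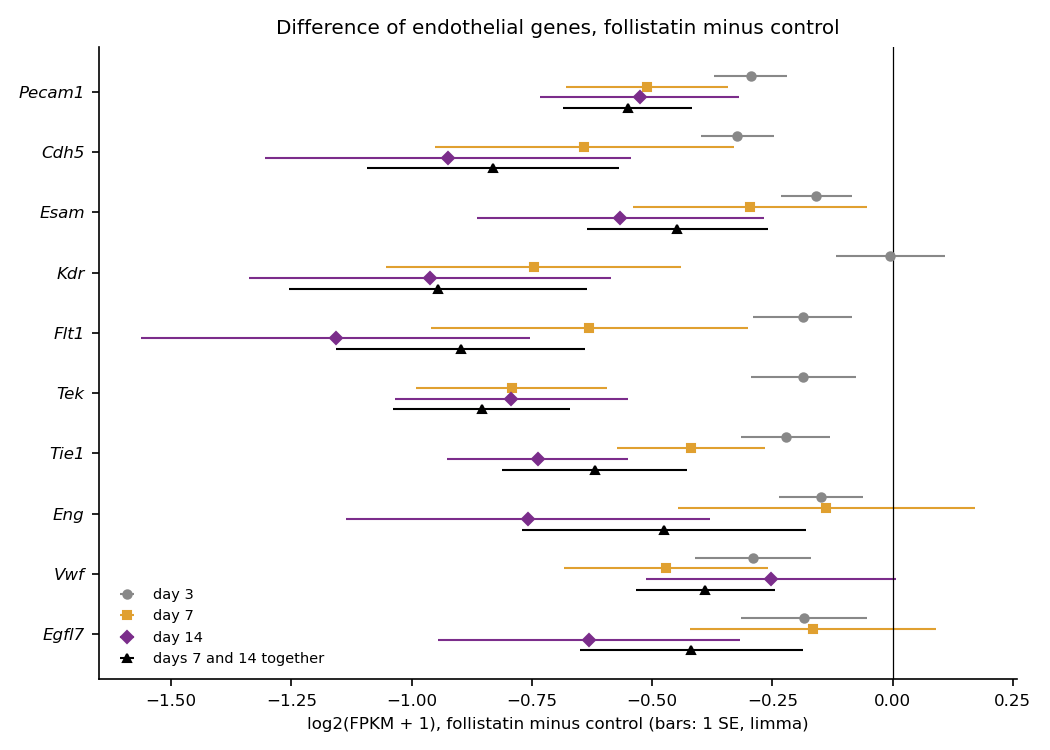
Log2 differences of the 10 genes, follistatin minus control, on log2(FPKM + 1) with 1 SE from limma, at day 3, day 7, day 14 and for days 7 and 14 together. The day 3 points lie between -0.32 and -0.00 and those of days 7 and 14 together between -0.94 and -0.39.

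Day by day, the differences ran from -0.79 to -0.14 at day 7 and from -1.16 to -0.25 at day 14. The medians were -0.49 at day 7 and -0.75 at day 14, and those of all genes -0.08 on each day. None of the 10 genes passed limma's adjusted test at day 7, where 0.217% of genes passed in either direction and 0.0634% as lower. None passed at day 14 either, where 0.507% passed in either direction and 0.281% as lower. The day 14 calls were 31 lower and 25 higher, and 32 lower and 46 higher under quantile normalization. At an unadjusted p under 0.05, 3 genes were lower at day 7 (Pecam1, Tek and Tie1), against 7.73% of all genes, and 5 at day 14 (Pecam1, Tek, Tie1, Kdr and Flt1), against 9.45%. Groups did not overlap for 7 of the 10 genes at day 7, against 33.9% of all genes as lower, and for 9 of the 10 at day 14, against 45.3%. With 2 against 2 and 2 against 1 libraries such separation is common, and the lone day 14 control is assumed to vary like the other groups. Leaving out follistatin day 7 replicate 2 turned the day 7 differences of Eng (to 0.037) and Egfl7 (to 0.15) to above 0. Leaving out follistatin day 14 replicate 1 turned the day 14 difference of Vwf to 0.038.

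The follistatin mean was lower at day 14 than at day 7 for 9 of the 10 genes, all but Vwf. Follistatin day 14 replicate 1 alone was below the day 7 follistatin mean for all 10 genes. The lone day 14 control was likewise below the day 7 control mean for each gene. Summed over the 10 genes, controls had 186.3 FPKM at day 14 and a mean of 220.5 FPKM at day 7. The follistatin means were 111.0 FPKM at day 14 and 158.6 FPKM at day 7. Follistatin day 14 replicate 2 was the lowest chronic library for 7 genes, and it had 0.431 times the Flt1, 0.506 times the Eng, 0.514 times the Kdr and 0.520 times the Cdh5 of the other day 14 follistatin library. Pecam1 (0.825) and Tie1 (0.931) were closer, and Esam (1.14), Egfl7 (1.30) and Vwf (1.70) were higher in it. Its macrophage and leukocyte markers summed to 271.2 FPKM, against 101.2 FPKM in the other day 14 follistatin library, and the part of this in the endothelial levels was not tested. A difference between the days was not tested.

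An interaction term in a fit of the 14 libraries tested the difference between the chronic and the day 3 effect of follistatin. It was below 0 for all 10 genes, against 64.2% of all genes, with a median of -0.36 against -0.11 for all genes. Of the 10, 0 passed limma's adjusted test, where 0.0884% of all genes passed in either direction and 0.0265% as lower. Over all genes, 3 calls were lower and 7 higher, and 1 lower and 7 higher under median ratio scaling. At an unadjusted p under 0.05 the interaction was lower for 3 of the 10 genes, against 11.9% of all genes. These were Kdr at -0.94 ± 0.35 (SE; limma adjusted p = 0.266), Flt1 at -0.71 ± 0.30 (adjusted p = 0.304) and Tek at -0.67 ± 0.22 (adjusted p = 0.233). The value of Vwf was -0.10 ± 0.19 (SE; limma adjusted p = 0.822), the nearest to 0. Without follistatin day 14 replicate 2 the differences of effects were -0.67 for Kdr, -0.53 for Tek and -0.46 for Flt1 (limma adjusted p from 0.250 to 0.289), that of Eng was nearest to 0 at -0.050, and the median of the 10 was -0.26.

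The authors' deposited table, made with Cuffdiff, called more of the genes. At day 3 it called Pecam1, Cdh5 and Vwf lower with follistatin, 3 of the 10, against 3.19% of the genes it tested. For days 7 and 14 the authors' deposited table called 7 of the 10 lower (Pecam1, Cdh5, Tek, Tie1, Kdr, Flt1 and Vwf), against 11.2% of the genes it tested. Its log2 ratios for the chronic set were largest for Tek (-0.99), Kdr (-0.97) and Flt1 (-0.97) in the authors' deposited table. Exact two-sided permutation tests of single genes over the 35 assignments of 7 libraries, with a smallest possible p of 0.0286, reached that p at day 3 for Cdh5 and Tie1 and in the chronic set for Pecam1, Tek and Flt1, before any adjustment over genes.

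Unequal change among the 10 genes was looked for in the ratio of each to Pecam1 within a library, which no scaling can alter. Over the 9 ratios of each set, none passed after Benjamini-Hochberg adjustment of the exact permutation p. With so few libraries at least 6 of the 9 ratios would have had to reach the smallest possible p for any to pass. The smallest at day 3 was that of Esam (exact permutation p = 0.0286, adjusted p = 0.257). Those of Flt1 and Tek in the chronic set came nearest (each adjusted p = 0.386 by the exact permutation test), at 0.250 and 0.206 in the mean of follistatin libraries and 0.333 and 0.276 in the mean of controls. These tests do not show that the genes moved alike.

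The order of the levels was similar in the groups. In day 3 follistatin libraries Cdh5 (31.7 ± 2.16 FPKM, SD, n = 4), Pecam1 and Egfl7 led and overlapped, with Tek (7.48 ± 0.985 FPKM) and Vwf (4.38 ± 0.383 FPKM) at the low end and apart from the rest. Day 3 controls had the same genes at both ends, Cdh5 at 39.9 ± 1.52 FPKM and Vwf at 5.61 ± 0.946 FPKM (SD, n = 3). In chronic follistatin libraries every gene overlapped its neighbour in the order, from Cdh5 at 25.5 ± 7.85 FPKM to Vwf at 3.23 ± 0.721 FPKM (SD, n = 4). Chronic controls ran from Cdh5 at 44.5 ± 6.05 FPKM to Vwf at 4.49 ± 0.371 FPKM (SD, n = 3), with Kdr in the fourth place, above Esam, which it overlapped.

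Over the 14 libraries, centred within day 3 and within the chronic set, each gene was compared with the mean of the other 9. Tie1 followed it most closely (Pearson r = 0.959) and Vwf least (r = 0.456), with Egfl7 at 0.697. The points share their treatment groups, so the values describe these libraries and carry no test. Among 10530 genes outside the 10, those most like their mean were Kiz (r = 0.989), C1qtnf9 (r = 0.971), Zfp385b (r = 0.971), Pnpla7 (r = 0.969), Pm20d2 (r = 0.968) and Mtss1l (r = 0.967), all over 14 libraries. None of the 6 was on any list used here. Kiz averaged 17.7 FPKM in day 3 follistatin libraries and 20.6 FPKM in day 3 controls, and 9.71 FPKM in chronic follistatin libraries and 16.7 FPKM in chronic controls.

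Other markers of endothelial cells were mostly on the same side. Of all tested genes, 47.4% were below 0 at day 3 and 60.8% in the chronic set. At an unadjusted p under 0.05, 6.46% and 19.3% of all genes were lower. In limma's adjusted test, 0.568% and 3.27% passed as lower. These shares are the background for each list that follows. Of 31 further surface and junction markers tested at day 3, 28 were below 0, with a median of -0.15, and none passed limma's adjusted test (4 lower at an unadjusted p under 0.05). In the chronic set 27 of 32 were below 0, with a median of -0.47, 1 passed and 19 were lower at an unadjusted p under 0.05. The gene that fell was S1pr1, a receptor for the lipid S1P that stabilises junctions, at 9.64, 9.53, 9.90 and 7.63 FPKM in follistatin libraries of days 7 and 14, against 16.0, 12.0 and 15.1 FPKM in controls. Its groups did not overlap and its difference was -0.59 ± 0.13 (SE; limma adjusted p = 0.0457). That call did not last without any 1 of the 3 controls (adjusted p of 0.206, 0.0710 and 0.163) or of follistatin day 7 replicate 2 (0.0658), day 14 replicate 1 (0.0739) and day 14 replicate 2 (0.0635), nor under median ratio scaling (0.0648). Jam2, a junction protein, stood at -1.03 ± 0.24 (SE; limma adjusted p = 0.0521). At day 3 the leading genes were Ushbp1 (-0.33, limma adjusted p = 0.101) and Rasip1 (-0.38, adjusted p = 0.242).

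Transcription factors of endothelial cells gave 17 of 18 below 0 at day 3 (median -0.14) and 18 of 19 in the chronic set (median -0.40). None passed limma's adjusted test. Some of these factors, such as Foxo1, are not confined to endothelial cells, and bulk RNA does not show which cells their values come from. At an unadjusted p under 0.05, 1 was lower and 1 higher at day 3, and 12 were lower in the chronic set. The leading ones were Foxo1 (-0.48 ± 0.12, SE; limma adjusted p = 0.0547) and Fli1 (-0.53 ± 0.13, SE; limma adjusted p = 0.0551) in the chronic set, and Ets2 (0.26, adjusted p = 0.230) and Sox17 (-0.44, adjusted p = 0.294) at day 3. Genes by which capillaries handle lipids and solutes gave 13 of 14 below 0 at day 3 (median -0.15) and 12 of 13 in the chronic set (median -0.58), with 0 passing limma's adjusted test and 3 and 8 lower at an unadjusted p under 0.05. The leaders were Fabp4 (-0.24, limma adjusted p = 0.150) and Car4 (-0.55, adjusted p = 0.228) at day 3, and Cav1 of caveolae (-0.72, adjusted p = 0.0547) and Aqp7 (-0.76, adjusted p = 0.0795) in the chronic set. For this list too, bulk RNA does not show which cells the values come from.

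Ligands and partners of the VEGF receptors were measured in 7 tested genes. At day 3, 3 were below 0 (median 0.01), and none passed limma's adjusted test or had an unadjusted p under 0.05. At days 7 and 14, 6 were below 0 (median -0.28), with 3 lower and 1 higher at an unadjusted p under 0.05. The differences ran from -0.75 to 0.54, and 1 gene passed. The gene that passed, as lower, was Nrp1, a co-receptor of Kdr. It had 12.3, 15.0, 13.6 and 9.98 FPKM in follistatin libraries of days 7 and 14, against 22.9, 20.7 and 18.6 FPKM in controls. Its groups were apart, with a difference of -0.67 ± 0.15 (SE; limma adjusted p = 0.0424). The call was lost without any 1 of the 3 controls (adjusted p of 0.197, 0.131 and 0.116) or of follistatin day 7 replicate 1 (0.0551) and day 14 replicate 1 (0.0705). Vegfa, the ligand, had 58.2, 65.5, 47.9 and 38.8 FPKM in chronic follistatin libraries, against 92.9, 85.1 and 84.9 FPKM in chronic controls. These groups did not overlap, and its difference was -0.75 ± 0.18 (SE; limma adjusted p = 0.0518). At day 3 Vegfa had 70.9, 68.0, 79.1 and 73.7 FPKM with follistatin, against 66.9, 81.1 and 70.2 FPKM in controls. The leading genes of day 3 were Vegfc (0.52, limma adjusted p = 0.402) and Vegfb (-0.19, adjusted p = 0.479).

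Of the angiopoietins and Tie partners, 4 of 5 were below 0 at day 3 (median -0.08), against 47.4% of all genes. In the chronic set 3 of 5 were below 0 (median -0.39), against 60.8% of all genes, so this count was near that share. None passed limma's adjusted test (0 and 3 lower at an unadjusted p under 0.05). Ptprb, the phosphatase that dampens Tek, stood at -0.84 ± 0.28 (SE; limma adjusted p = 0.107) and Angpt2, a ligand of Tek, at -0.42 ± 0.16 (SE; limma adjusted p = 0.135) in the chronic set. At day 3 Svep1 was at -0.31 (limma adjusted p = 0.331) and Angpt2 at 0.18 (adjusted p = 0.661). Endothelial Notch genes gave 6 of 10 below 0 at day 3 (median -0.08) and 10 of 10 in the chronic set (median -0.42, 0 passing limma's test and 6 lower at an unadjusted p under 0.05). At day 3 Hes1, a target of Notch in many cell types, fell to 3.88, 5.04, 4.52 and 6.28 FPKM with follistatin, against 8.43, 8.78 and 11.2 FPKM in controls. Its difference was -0.82 ± 0.15 (SE; limma adjusted p = 0.0405). The call was lost without any 1 of the 3 controls (adjusted p from 0.109 to 0.131), or of follistatin day 3 replicates 1, 2 and 3 (from 0.0927 to 0.0987), and under quantile normalization (0.0522). The Notch ligand Dll4 was at -0.42 ± 0.10 (SE; limma adjusted p = 0.0918) at day 3, and Dll1 (-0.36, adjusted p = 0.0874) and Hey1 (-0.47, adjusted p = 0.103) led in the chronic set.

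In the BMP9, ALK1 and endoglin pathway, 1 gene had the largest difference among all tested genes of the endothelial lists. Tmem100, a membrane protein that endothelial cells make in answer to ALK1 signalling, had 2.30, 4.17, 1.86 and 2.61 FPKM in day 3 follistatin muscles, against 8.77, 8.42 and 7.67 FPKM in controls. At day 7 it had 1.75 and 1.72 FPKM with follistatin, against 13.1 and 8.34 FPKM in controls, and at day 14 it had 0.781 and 2.40 FPKM with follistatin, against 7.55 FPKM in the control. Follistatin and control libraries were apart at every day. It fell by 1.35 on the log2 scale at day 3 (SE 0.19, limma adjusted p = 0.0133) and by 2.01 in the chronic set (SE 0.25, limma adjusted p = 0.00941). The day 3 call was lost without control day 3 replicate 1 (adjusted p = 0.0758) or replicate 2 (0.0716), and the chronic call kept its side of the threshold without any 1 library. With libraries blocked by replicate number, 0 of all genes passed in the chronic set, so the chronic call was lost there. The other genes of this list did not share the size of the Tmem100 difference. The median of the list was 0.03 at day 3, with 5 of 11 below 0, against 47.4% of all genes. In the chronic set it was -0.27, with 7 of 10 below 0, against 60.8% of all genes. At an unadjusted p under 0.05, 1 was lower and 1 higher at day 3, and 2 were lower in the chronic set. Smad1 at day 3 (0.26, limma adjusted p = 0.246) and Smad5 in the chronic set (-0.30, adjusted p = 0.165) followed.

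**Figure D3:**
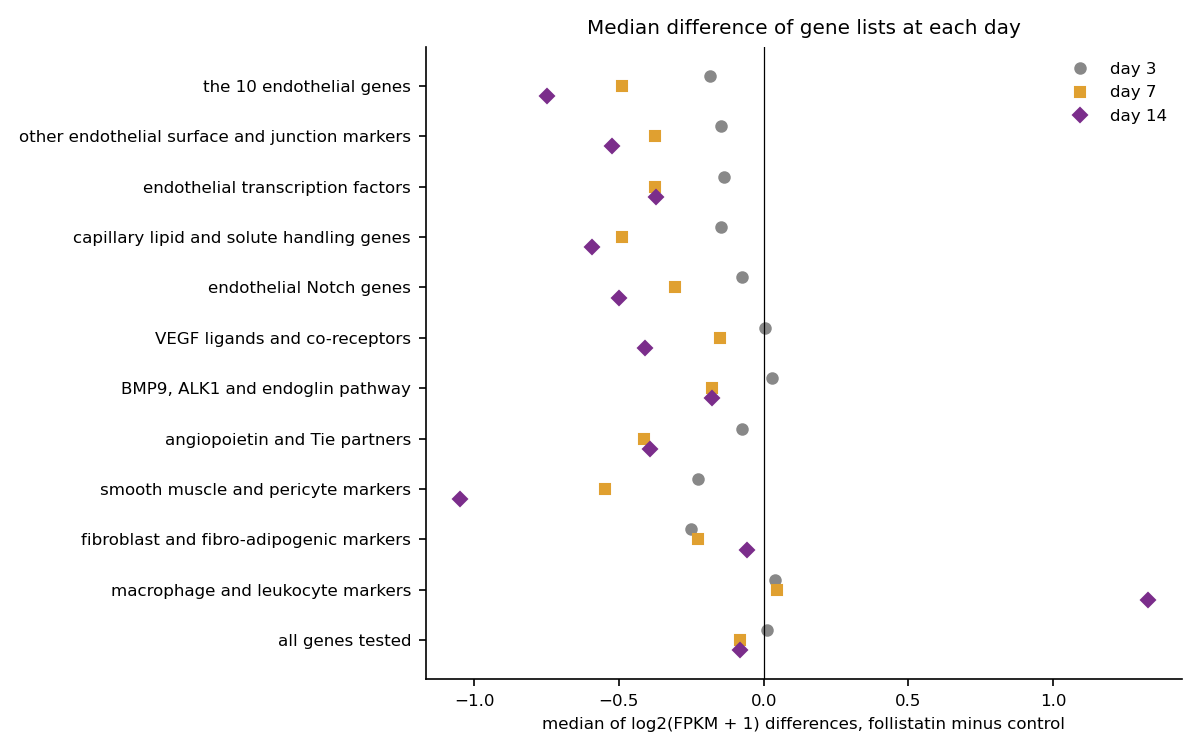
Median log2 difference, follistatin minus control, of each gene list and of all genes tested at day 3, day 7 and day 14. The 10 endothelial genes lie at -0.19, -0.49 and -0.75, the smooth muscle and pericyte markers at -0.23, -0.55 and -1.05, and the macrophage and leukocyte markers at 0.04, 0.04 and 1.33.

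Lymphatic vessels added little. Their 6 markers summed to 5.57 to 8.26 FPKM in chronic follistatin libraries and to 3.96 to 6.60 FPKM in chronic controls, and 1 was listed at 0 in every group. Only 2 could be tested at day 3 and 1 in the chronic set, and none passed limma's adjusted test (Lyve1 -0.45, adjusted p = 0.414, and Pdpn 0.24, adjusted p = 0.554, at day 3, and Pdpn 0.63, adjusted p = 0.103, in the chronic set). Prox1, the defining factor of lymphatic endothelium, was under 1 FPKM in every group mean.

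Cells that surround vessels differed in the same direction as the endothelial genes. Smooth muscle and pericyte markers were below 0 in 11 of 13 genes at day 3 (median -0.23) and in 13 of 13 in the chronic set (median -0.81). None passed limma's adjusted test, and 6 and 10 were lower at an unadjusted p under 0.05. Their sums were 265.3 to 331.8 FPKM with follistatin and 335.8 to 370.1 FPKM in controls at day 3, and 83.6 to 181.2 FPKM with follistatin and 228.9 to 293.5 FPKM in controls in the chronic set. Follistatin and control libraries did not overlap in either set. Rgs4 (-0.95 ± 0.22, SE; limma adjusted p = 0.0507) and Tagln (-0.87 ± 0.23, SE; limma adjusted p = 0.0689) led in the chronic set, and Kcnj8 (-0.42, adjusted p = 0.177) and Higd1b (-0.77, adjusted p = 0.189) at day 3. Without follistatin day 14 replicate 2, the lowest of the chronic sums, 13 of 13 were below 0 with a median of -0.54, the sums of the 3 other follistatin libraries were 155.2 to 181.2 FPKM, and Rgs4 passed limma's adjusted test. Whether the perivascular and endothelial values have 1 source was not tested.

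The chronic medians of most other lists stayed below 0 without follistatin day 14 replicate 2. These medians were -0.38 for the further surface and junction markers, -0.36 for the transcription factors, -0.49 for capillary lipid and solute handling, -0.16 for VEGF ligands and partners, -0.37 for angiopoietins and Tie partners, -0.33 for Notch genes, -0.20 for the BMP9 pathway and -0.20 for fibroblast markers, and the median of all genes was -0.09. The lymphatic markers were then at 0.30 (2 tested), platelet markers at 0.062 (2 tested), red blood cell markers at -0.20 and muscle fibre markers at -0.23 (2 tested). Of the surface and junction markers, Jam2 and Adgrf5 then passed limma's adjusted test and S1pr1 did not, while Nrp1 and Tmem100 passed as before.

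Fibroblast markers were below 0 in 12 of 14 genes at day 3 (median -0.25), against 47.4% of all genes. In the chronic set they were below 0 in 10 of 14 (median -0.25), against 60.8% of all genes. None passed limma's adjusted test (6 and 0 lower at an unadjusted p under 0.05). Gsn (-0.39, limma adjusted p = 0.0949) and Dpt (-0.35, adjusted p = 0.107) led at day 3, and Ly6a (-0.36, adjusted p = 0.250) and Dcn (-0.36, adjusted p = 0.261) in the chronic set. Macrophage and leukocyte markers went the other way in the chronic set, with 1 of 11 below 0 and a median of 0.65. Their median was 0.04 at day 7, with 3 of 11 below 0, and 1.33 at day 14, which had 1 control. Without follistatin day 14 replicate 2 the chronic median was 0.25 with 0 of 11 below 0. Their summed FPKM then averaged 93.3 in the 3 other follistatin libraries and 83.2 in controls, a ratio of 1.12. They had 4 of 11 below 0 and a median of 0.04 at day 3, and none passed limma's adjusted test in either set (1 and 0 lower, and 0 higher, at an unadjusted p under 0.05). Their sums overlapped between treatments at day 3, at 164.2 to 392.0 FPKM with follistatin and 176.2 to 267.7 FPKM in controls, and in the chronic set, at 84.3 to 271.2 FPKM with follistatin and 51.7 to 139.9 FPKM in controls. Cd163 (-0.32, limma adjusted p = 0.323) and Mrc1 (0.24, adjusted p = 0.596) led at day 3, and Mrc1 (0.67, adjusted p = 0.190) and Cd68 (0.73, adjusted p = 0.242) in the chronic set.

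Markers of blood were compared because platelets and blood cells lie inside the vessels. Of the platelet markers, 2 could be tested in each set and none passed limma's adjusted test: Gp1ba was at -0.16 and Pf4 at -0.25 at day 3 (adjusted p of 0.702 and 0.865), and they were at -0.34 and 0.34 in the chronic set (0.222 and 0.411). Red blood cell markers had medians of -0.22 at day 3 and -0.21 in the chronic set, with 4 and 5 of 6 below 0 and none passing limma's adjusted test (1 lower and 1 higher at an unadjusted p under 0.05 at day 3, 0 in the chronic set). At day 3 Hba-a2 stood at 2.70 (limma adjusted p = 0.206) and Hba-a1 at -3.10 (adjusted p = 0.219). These are near-identical copies whose reads the authors' estimate could split, so their single values are uncertain. In the chronic set Hba-a2 stood at -1.11 (limma adjusted p = 0.355) and Hbb-bs at -1.27 (adjusted p = 0.520). Of the muscle fibre markers that were not listed at 0, Ryr1, the calcium release channel, fell in the chronic set (-0.71 ± 0.15, SE; limma adjusted p = 0.0404) and Des was at 0.29 (adjusted p = 0.288). The Ryr1 call was lost in 11 of 18 alternatives, among them leaving out any 1 of the 3 controls (adjusted p from 0.0810 to 0.195) or of follistatin day 7 replicate 2 (0.0656), day 14 replicate 1 (0.0502) and day 14 replicate 2 (0.0527). At day 3 Mylpf (0.26, limma adjusted p = 0.116) and Ryr1 (-0.24, adjusted p = 0.280) led.

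**Figure D4:**
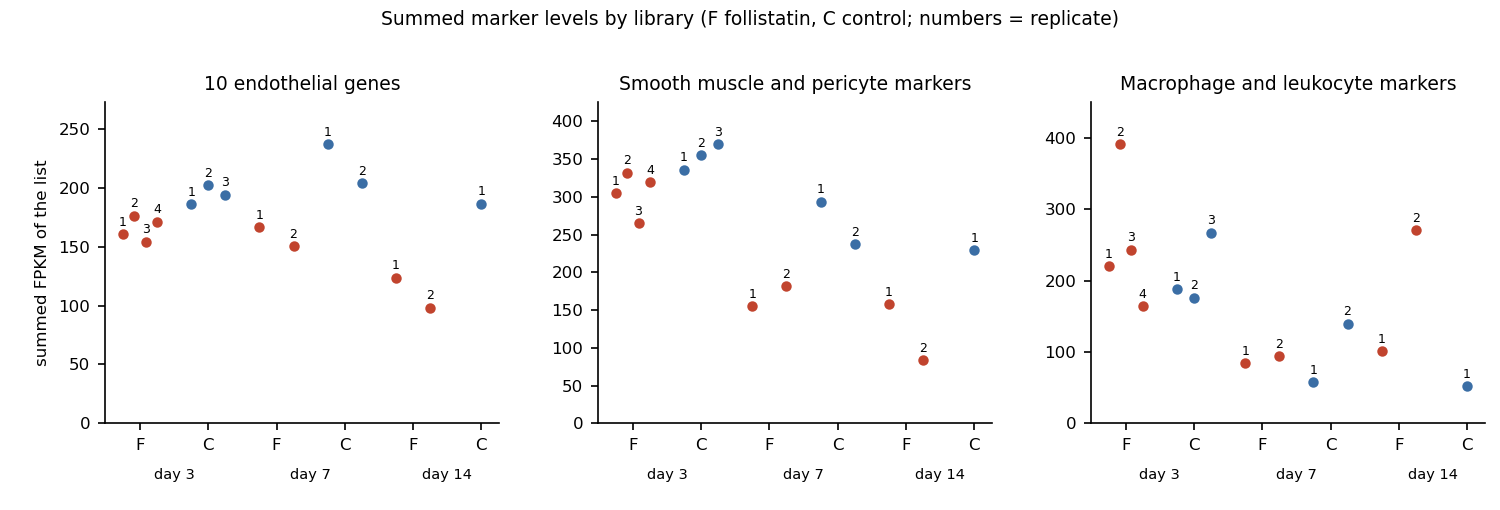
Summed FPKM of the 10 endothelial genes, of smooth muscle and pericyte markers and of macrophage and leukocyte markers in each library, with follistatin (F, red) left of control (C, blue) and the replicate number above each point. The endothelial sum is 154.2 to 176.1 FPKM with follistatin and 186.0 to 202.0 FPKM in controls at day 3, and 98.2 to 166.5 FPKM with follistatin and 186.3 to 237.2 FPKM in controls at days 7 and 14.

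As a share of each library, the 10 genes made up 461.2 to 526.2 FPKM of every 1000000 in day 3 follistatin libraries and 577.4 to 578.1 in day 3 controls, with the very highly expressed genes left out of the total. At day 7 they made up 427.3 and 446.6 FPKM of every 1000000 with follistatin, against 628.3 and 585.9 in controls. At day 14 the shares were 375.3 and 251.7 with follistatin, against 530.5 in the control. Follistatin libraries were below controls at every day on this scale too. Rescaling of the libraries moved the median of the chronic differences of all genes from -0.09 to between -0.11 and -0.01, and the median of the 10 genes relative to it stayed between -0.52 and -0.48.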

How the data were processed

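Poly(A) RNA of tibialis anterior muscle was sequenced from libraries made with an Illumina TruSeq kit, per the labels. TopHat, Cuffdiff and the mm10 build are what the authors used, per the submitters' processing notes, and versions, annotation and strand setting are not given in the sources used here. The deposited files of the 14 libraries hold FPKM per gene. The authors' deposited Cuffdiff tables hold log2 fold changes, test scores, p-values and q-values for day 3 and for days 7 and 14 together.

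From 24386 rows, 27 symbols turned into dates were left out. Genes marked as having too many reads (4 at day 3, 31 in the chronic set) were not tested. Absolute depth is unknown. From the steps between FPKM under 0.5 (whole reads up to 6, tolerance 0.02 on the log2 scale), day 3 libraries had 0.683 to 1.28 times the depth of control day 3 replicate 1, with 79.3% to 83.9% of low values on steps. For the chronic libraries 52.9% to 62.9% of low values were on steps, too few under the limit of 75% for a depth.

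Each set was fitted with limma 3.58.1 in R 4.3.3 (lmFit, eBayes with trend, two-sided) on log2(FPKM + 1), as follistatin minus control, for genes averaging 1 FPKM or more, with Benjamini-Hochberg adjustment over all genes. Day 7 and day 14 were contrasts in a fit of the 7 chronic libraries as 4 groups. The added 1 shrinks the log2 differences of low genes. The fit was tested on simulated data. Single genes and ratios also had exact permutation tests.

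The 10 genes, and 14 further lists of endothelial pathways and cell type markers, were chosen with earlier results of these data known. Named genes are the 10, Fst, the 2 genes of each list with the smallest p at day 3 and the 2 in the chronic set, and the 6 genes most alike the 10. Prox1 and Adgrf5 were named outside this rule, as were Acta1, Ckm, Mir126a and the genes whose exons overlap Eng or Egfl7. Alternatives were a pseudocount of 0.1, no filter or a mean of at least 5 FPKM, median ratio scaling, quantile normalization, robust eBayes, a replicate block, no small RNA genes (1287), 1 fit of all 14 libraries, a day term and leaving out each library. Scaling every library to the same FPKM total was added after the data were seen. Positions are from GENCODE M21 (mm10), promoters from RefSeq (GRCm38.p6).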

Additional observations from a re-analysis of the deposited data

Results flagged for a closer look

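Flt1 in follistatin day 14 replicate 2, at 2.80 FPKM, lay far from the other 3 chronic follistatin libraries (6.48, 7.16 and 6.49 FPKM). Its gap to the nearest of them was 0.845 of the whole range, above the limit of 0.829 for 4 libraries. These 4 libraries join day 7 and day 14, and 1 of 22 such groups of 4 was marked, where chance marks about 1 in 20.

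The effect of follistatin on Fst was larger in the chronic set than at day 3, by 3.77 ± 0.56 on the log2 scale (SE; limma adjusted p = 0.0322 for the interaction). All follistatin libraries were above all controls in both sets. The adjusted p ran from 0.0107 to 0.377 over 23 alternatives, and the difference was above 0 in all of them.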

How the results depend on the processing

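In the chronic set none of the 10 endothelial genes changed sign in any alternative tried. Of 1 chronic call among the 10, 6 were made with all 14 libraries in 1 fit, 3 without small RNA genes, 2 with robust eBayes and 2 with a mean of at least 5 FPKM, against 0 with no filter on low values, 0 with the same FPKM total and 0 to 3 when each library was left out in turn. The 1 call at day 7 (Tek) and the 1 at day 14 (Tie1) came with all 14 libraries in 1 fit, and 0 were made at day 3 in any alternative. The fit of all 14 libraries pools the spread of both sets. Within treatments, the spread of the median of the 10 genes between libraries was 0.064 at day 3 and 0.26 in the chronic set. Chronic errors in that fit can therefore be too small. The median of the 10 genes ran from -0.26 to -0.15 at day 3 and from -0.72 to -0.49 in the chronic set when libraries were left out. Over all genes, 608 were called in the chronic set: 284 with no filter, 963 without small RNA genes, 1980 with all 14 libraries, 398 with the same FPKM total and 43 to 907 leaving out each library. At day 3, 168 became 266 without small RNA genes and 39 to 165 leaving out each library. At day 7, 24 became 15 with no filter, 83 with robust eBayes, 72 without small RNA genes, 440 with all 14 libraries and 9 to 59 leaving out each library. At day 14, 56 became 32 with a mean of at least 5 FPKM, 147 with robust eBayes, 120 without small RNA genes, 670 with all 14 libraries and 36 to 90 leaving out each library. For the difference of the effects, 10 became 2 with no filter and 2 to 32 leaving out each library. The cause of these changes was not tested.

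Sign changes were few. Leaving out each library in turn, Kdr at day 3 ran from -0.072 to 0.064, Eng at day 7 from -0.31 to 0.037, Egfl7 at day 7 from -0.49 to 0.15, Vwf at day 14 from -0.54 to 0.038, the difference of effects of Vwf from -0.20 to 0.017, Pf4 at day 3 from -0.87 to 0.25 and Hbb-bs in the chronic set from -1.82 to 0.053. Kdr at day 3 was 0.0049 with the same FPKM total, and the Vwf difference of effects was 0.040 with quantile normalization.

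Replicate numbers gave no sign of pairing at day 3, where deviations of same-numbered libraries correlated at -0.05, -0.06 and -0.03. At day 7 the 2 libraries of a group mirror each other around their mean. All pairs then share 1 size (0.02 with the same number, -0.02 with the other), which says little about pairing. A replicate block gave 13 calls at day 3, 0 in the chronic set (0 of the 10 genes), 8 at day 7 and 3 for the difference of effects, and none could be fitted for day 14 alone. These fits also left out follistatin day 3 replicate 4 and follistatin day 14 replicate 2, which had no control of the same day and number. Leaving out these libraries without a block gave 165 calls at day 3 and 480 in the chronic set. At day 3 no library correlated best with its own number. Depth limits the low genes: 1 or a few reads decide values under 0.5 FPKM.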

Other observations

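Mir126a, the microRNA gene inside Egfl7 (chr2:26591357-26591429, plus strand), was listed at 502.0 FPKM in control day 7 replicate 1 and at 0 in the other 13 libraries. It has 73 bases, and it shares 73 with exons of Egfl7. FPKM divides by length, so few reads could give such a value for so short a gene. That control listed 16158 genes above 0, against 19383 to 20283 in chronic follistatin libraries and 19590 and 20075 in the other chronic controls. Among the chronic libraries it had the highest level of 8 of the 10 endothelial genes, all but Vwf and Egfl7.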
